A study of Mus musculus with 8 samples.

Results

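Hair keratin-associated proteins are the matrix proteins in which the keratin filaments of the hair shaft are embedded, and their genes carry the symbol Krtap. They were taken here as every deposited gene symbol that begins with Krtap and a number, which gave 51 of the 22609 gene symbols counted in each library. Polyadenylated RNA had been sequenced from paw tissue of the inbred mouse strain C57BL/6J, in 4 libraries from males and 4 from females. Every library, of either sex, carries the label of 12 days of prolactin (PRL), a hormone of the pituitary with a well-known role in milk production, given into the sole at 0.1 µg in 1 injection per day. The protocol also names PBS arms and arms with a single injection, not analysed here. All values therefore come from treated paws, with no untreated background. The labels give no age, do not say which part of the paw was taken or whether animals were pooled, and do not state that each library is a separate animal. P-values therefore measure the spread between these libraries.

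Hair is built by keratinocytes of the follicle that leave the matrix at its base, fill with hair keratins and then with keratin-associated proteins, and harden as disulfide bonds link the proteins. The proteins are grouped by composition into a high-sulfur class, an ultrahigh-sulfur class in which cysteine is still more frequent, and a class rich in glycine and tyrosine. The class follows the family number, and the genes are short and lie in clusters of neighbours. Follicles make the shaft only in the growth phase of the hair cycle, anagen. In a paw the hairy dorsal skin carries follicles and the claws contain hair-type keratins, while the sole is hairless.

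All 51 symbols matched a gene of the RefSeq annotation of build GRCm38, 7 of them through an older symbol. In that annotation 22 members lay on chromosome 11, 21 on chromosome 16, 5 on chromosome 7 and 3 on chromosome 10. By family number 12 members belonged to the glycine-tyrosine-rich class, 18 to the high-sulfur and 17 to the ultrahigh-sulfur class. The other 4, Krtap16-1, Krtap16-10, Krtap31-1 and Krtap31-2, were left without a class. Several deposited symbols predate the present names: Krtap16-8 is now Krtap6-5, Krtap16-7 is Krtap21-1, Krtap8-2 is Krtap19-5, and Krtap16-4, Krtap16-5 and Krtap16-9 are Krtap19-4, Krtap19-3 and Krtap19-1. The deposited Krtap16-1 matched a gene on chromosome 11 by symbol, and whether the authors' annotation used the symbol for that gene is not known.

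The start regions of 46 members were at hand, from RefSeq on GRCm38.p6, and a TATA box word was frequent among them. In the 250 bases before the gene start, TATAAA on either strand was present in 37 of the 46 members (80.4%), against 4063 of 32851 genes in all (12.4%). By class it was present in 8 of 11 glycine-tyrosine-rich, 11 of 15 high-sulfur and 14 of 16 ultrahigh-sulfur members. The word CTTTGAA, the form CTTTGAT, the form CTTTGTA and the form CTTTGTT, which resemble the binding site of the TCF and LEF factors of Wnt signalling, were searched on both strands in the same windows. At least 1 of them was present in 15 of 46 members (32.6%), against 14.8% of all genes. By class these were 8 of 15 high-sulfur, 2 of 11 glycine-tyrosine-rich and 3 of 16 ultrahigh-sulfur members. These matches describe letters, not binding. The 5 regions printed here are those of the members on which the results turn. They are Krtap8-1 and Krtap6-2 of the glycine-tyrosine-rich class, their high-sulfur neighbour Krtap11-1, and Krtap3-1 and Krtap3-2. The last pair are adjacent relatives whose levels parted most in female replicate 2. Each runs 5′ to 3′ on the gene's strand and ends at the base before the gene start, and capitals mark the words searched.
Krtap8-1 (chr16:89487953-89488202, minus strand): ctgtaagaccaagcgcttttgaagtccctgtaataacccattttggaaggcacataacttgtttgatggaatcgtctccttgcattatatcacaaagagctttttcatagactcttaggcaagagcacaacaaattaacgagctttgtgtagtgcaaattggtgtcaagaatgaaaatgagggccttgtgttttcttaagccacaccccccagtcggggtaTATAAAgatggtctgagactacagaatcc
Krtap6-2 (chr16:89420112-89420361, minus strand): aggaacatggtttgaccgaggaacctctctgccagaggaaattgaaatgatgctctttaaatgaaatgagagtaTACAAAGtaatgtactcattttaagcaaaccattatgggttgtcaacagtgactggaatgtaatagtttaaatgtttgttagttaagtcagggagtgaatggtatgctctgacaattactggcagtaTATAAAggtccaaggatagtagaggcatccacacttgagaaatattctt
Krtap11-1 (chr16:89571184-89571433, minus strand): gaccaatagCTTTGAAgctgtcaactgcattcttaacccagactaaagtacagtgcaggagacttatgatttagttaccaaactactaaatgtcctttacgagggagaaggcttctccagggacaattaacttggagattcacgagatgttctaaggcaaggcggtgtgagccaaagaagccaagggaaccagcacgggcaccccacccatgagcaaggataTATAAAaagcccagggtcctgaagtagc
Krtap3-1 (chr11:99566631-99566880, minus strand): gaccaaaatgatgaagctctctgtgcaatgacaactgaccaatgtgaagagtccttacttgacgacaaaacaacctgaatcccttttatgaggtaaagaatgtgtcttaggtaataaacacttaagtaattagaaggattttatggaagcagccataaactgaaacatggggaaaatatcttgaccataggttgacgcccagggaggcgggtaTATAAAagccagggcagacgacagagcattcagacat
Krtap3-2 (chr11:99556854-99557103, minus strand): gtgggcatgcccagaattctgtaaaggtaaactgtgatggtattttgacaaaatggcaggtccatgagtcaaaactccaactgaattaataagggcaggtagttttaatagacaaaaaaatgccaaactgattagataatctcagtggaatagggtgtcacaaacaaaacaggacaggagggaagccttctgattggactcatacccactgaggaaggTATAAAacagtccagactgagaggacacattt
TATAAA began 29 bases before the start of Krtap8-1, 49 before Krtap6-2, 28 before Krtap11-1, 37 before Krtap3-1 and 32 before Krtap3-2. A TCF/LEF word was found in Krtap6-2 and Krtap11-1 among the 5.

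Library depth ran from 16753528 to 24993744 gene counts, of which the members together held 1397 to 17752. At least 1 count was found for 45, 46, 49 and 48 members in male replicates 1 to 4 and for 46, 42, 49 and 47 in female replicates 1 to 4, which is 82.4% of the members in female replicate 2 and 96.1% in male replicate 3 and female replicate 3. At least 10 counts were reached by 25 members in female replicate 2 and by 36 to 46 in the other 7 libraries. Counts were present in all 8 libraries for 40 members and in 2 to 7 libraries for 10. Krtap13 had 0 counts in every library. Levels are given in CPM, a count over the library's TMM-scaled total times 1000000, and 3 counts, the upper limit that a count of 0 allows, correspond to 0.116 to 0.177 CPM depending on the library (counting error only).

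The deposited files set alignments that were not unique apart from the gene counts, which matters for families of near copies. Of the 50-base windows in each member's GENCODE M21 transcript, a median of 8.77% also occurred in the transcript of another gene. No window was shared by 15 members, among them Krtap8-1, Krtap7-1, Krtap11-1 and Krtap13-1. Sharing was highest for Krtap4-13 (81.3%, 13 counts over the 8 libraries) and Krtap5-1 (60.6%, 47 counts), whose levels are therefore uncertain. Krtap9-5 shared no window and had 5 counts in all.

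In most libraries the single member of highest level came from the glycine-tyrosine-rich class. Krtap8-1 stood at 9.26, 13.3, 31.5 and 23.4 CPM in male replicates 1 to 4 and at 30.1, 1.43, 64.3 and 26.2 CPM in female replicates 1 to 4. Its neighbour Krtap7-1 stood at 9.95, 13.8, 28.7 and 19.4 CPM in male replicates 1 to 4 and at 21.03, 1.20, 60.8 and 23.02 CPM in female replicates 1 to 4. Both were highest in female replicate 3 and lowest by far in female replicate 2, with the sexes overlapping. Per kilobase of transcript these were also the leading pair, at means over the 8 libraries of 43.4 and 35.8 CPM per kilobase, followed by Krtap16-8 at 22.0. Krtap8-1 had the highest CPM of the members in 5 of 8 libraries, while Krtap7-1 led in male replicate 2, Krtap11-1 in male replicate 1 and Krtap3-2 in female replicate 2.

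The other well-counted members of this class went with them. Krtap6-2 stood at 3.43, 5.67, 14.5 and 13.9 CPM in male replicates 1 to 4 and at 14.7, 0.0924, 39.9 and 14.4 CPM in female replicates 1 to 4. That is 2 counts in female replicate 2 against 904 in female replicate 3. Krtap16-8 stood at 1.79, 6.31, 14.8 and 13.7 CPM in male replicates 1 to 4 and at 12.4, 0.139, 43.9 and 11.8 CPM in female replicates 1 to 4. Krtap16-7, Krtap6-1 and Krtap22-2 had means over the 8 libraries of 11.8, 10.1 and 7.38 CPM, and 5, 5 and 3 counts in female replicate 2. Krtap8-2, a less abundant member, had 0, 15, 43 and 44 counts in male replicates 1 to 4 and 65, 0, 271 and 68 in female replicates 1 to 4. Krtap16-4 and Krtap16-9 were likewise at 0 in male replicate 1 and female replicate 2 alone, and Krtap20-2 had 1 to 14 counts per library.

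The summed level of the high-sulfur members differed 6.95-fold between the lowest and the highest library, against 91.6-fold for the glycine-tyrosine-rich members, but single members varied more. Krtap11-1, which lies at the end of the chromosome 16 cluster, stood at 10.1, 7.06, 30.6 and 16.2 CPM in male replicates 1 to 4 and at 17.7, 6.42, 37.3 and 10.99 CPM in female replicates 1 to 4. Krtap13-1, from the same cluster, stood at 5.27, 4.44, 16.96 and 9.11 CPM in male replicates 1 to 4 and at 10.7, 4.34, 29.97 and 7.17 CPM in female replicates 1 to 4. Both were again highest in female replicate 3 and lowest in female replicate 2, where they kept 139 and 94 counts. On chromosome 11, Krtap3-1 stood at 6.82, 8.66, 18.98 and 11.4 CPM in male replicates 1 to 4 and at 11.7, 3.42, 31.1 and 8.60 CPM in female replicates 1 to 4. Krtap1-4, Krtap1-3 and Krtap3-3 ranged over the libraries from 3.14 to 19.8, 2.17 to 15.6 and 2.49 to 23.7 CPM. Krtap1-5, Krtap14 and Krtap15 had wide ranges. Krtap14 stood at 0.697, 2.78, 5.07 and 3.18 CPM in male replicates 1 to 4 and at 4.42, 0.139, 10.4 and 3.01 CPM in female replicates 1 to 4. Krtap15 stood at 0.647, 3.58, 7.91 and 4.36 CPM in male replicates 1 to 4 and at 7.95, 0.0462, 14.1 and 5.71 CPM in female replicates 1 to 4. Both, from chromosome 16, were lowest in female replicate 2 and next lowest in male replicate 1. Krtap1-5, on chromosome 11, had 17 counts (0.785 CPM) in female replicate 2 and 3.28 to 34.2 CPM in the other 7 libraries. Krtap26-1 and Krtap24-1, also on chromosome 16, ranged from 2.91 to 19.2 and from 1.71 to 9.84 CPM, and Krtap2-4 from 0.600 to 4.72 CPM.

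Ultrahigh-sulfur members were of middling abundance. Krtap9-3, the highest of them, stood at 5.97, 5.56, 14.7 and 7.69 CPM in male replicates 1 to 4 and at 8.54, 3.23, 21.1 and 6.44 CPM in female replicates 1 to 4. In 14 of the 17 the highest library was female replicate 3. The other 3 were highest in male replicate 3: Krtap17-1, with 15.8 CPM there and 14.9 CPM in female replicate 3, and the scarcely counted Krtap5-1 and Krtap9-5, with 14 and 4 counts there and 11 and 0 in female replicate 3. Krtap4-1, Krtap4-7, Krtap4-16 and Krtap4-2 had means of 6.92, 6.87, 5.95 and 5.81 CPM. The Krtap5 genes of chromosome 7 were low, with a mean of 2.21 CPM for Krtap5-5 and 1.13 CPM or less for the other 4.

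**Figure D1:**
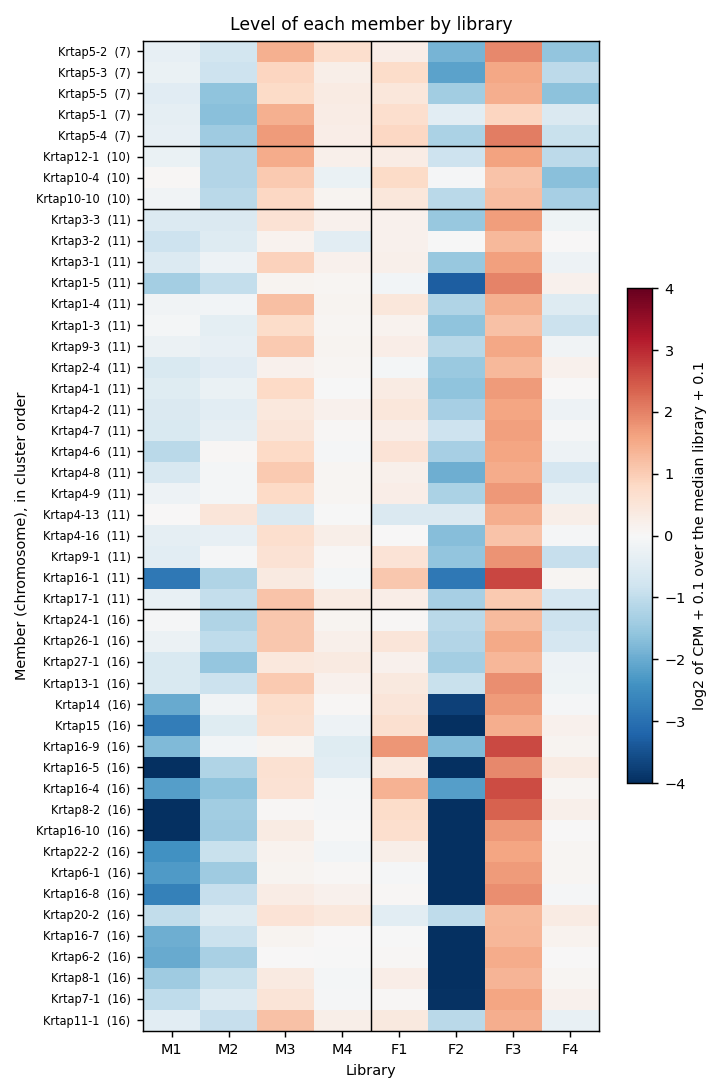
Level of the 47 members with a median of at least 1 count per library, as log2 of CPM + 0.1 over the median library + 0.1. Columns are libraries (M male, F female), members stand in gene order within their chromosome (number in parentheses), and colours end at 4 in either direction. The dark blue block on chromosome 16 in F2, paler in M1, holds the members from Krtap14 to Krtap7-1, and F3 is red nearly throughout.

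The summed level of the 51 members differed 12.1-fold between the lowest and the highest library and did not separate the sexes. It stood at 135, 159, 406 and 272 CPM in male replicates 1 to 4 and at 313, 64.5, 784 and 243 CPM in female replicates 1 to 4, so that the highest and the lowest library were both female. Of the 50 members with any count, 45 were highest in female replicate 3, and 40 were lowest in female replicate 2, ties included. Each library was then set against the median of the other 7, over the members with a median of at least 20 counts in those 7. In female replicate 3 all 37 such members were higher, by 2.29 to 5.55 times. In female replicate 2 all 37 were lower, with a median ratio of 0.304. In bulk tissue, fewer follicle cells and less RNA per cell cannot be told apart.

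Other tissues in the sample moved between libraries as well. Summed fast skeletal muscle transcripts (12 of 12 genes counted) ran from 925 to 27752 CPM in males and from 29.0 to 20714 CPM in females, and female replicate 3 held the lowest value, with the defining genes Actn3 and Pvalb at 0.309 and 0.441 CPM. Male replicate 2 held the highest, with a Krtap sum of 159 CPM. Female replicate 1, at 20714 CPM of muscle transcripts, had a Krtap sum of 313 CPM. Female replicate 2, at 2965 CPM of them, had the lowest Krtap sum, 64.5 CPM. Summed interfollicular keratinocyte markers (12 of 12 genes counted) ran from 76209 to 98385 CPM in males and from 61664 to 89373 CPM in females. Female replicate 2, with the least Krtap transcript, held 89199 CPM of them. The part of muscle or epidermis content in the Krtap levels was not tested.

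**Figure D2:**
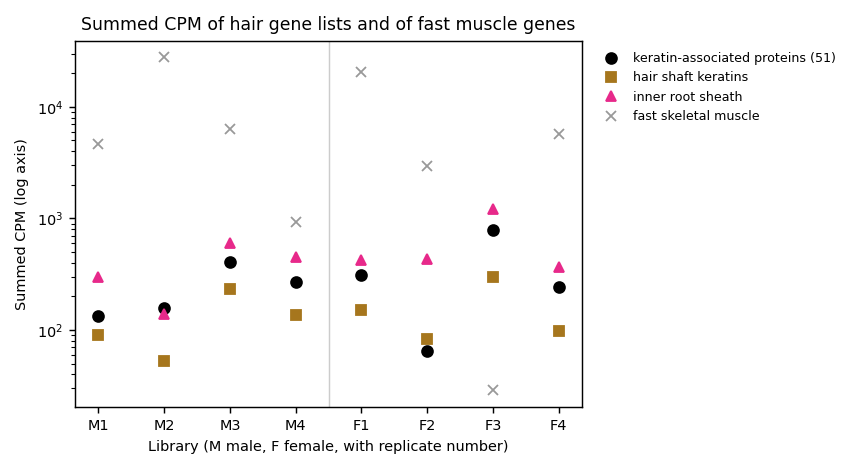
Summed CPM (log axis) of the 51 keratin-associated protein genes, 15 hair shaft keratins, 9 inner root sheath genes and 12 fast muscle genes in each library (M male, F female). The keratin-associated proteins span 64.5 to 784 CPM, and in F2 they lie below the hair shaft keratins, unlike in the other 7 libraries.

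Beyond their total, the make-up of the Krtap transcripts differed between libraries. Glycine-tyrosine-rich members held 23.0% (95% exact Clopper-Pearson interval 21.5 to 24.7), 35.3%, 32.2% and 38.9% of the Krtap counts in male replicates 1 to 4. They held 38.2%, 5.51% (4.37 to 6.84), 41.6% and 47.5% (46.2 to 48.7) in female replicates 1 to 4. Female replicate 2 thus stood far below the other libraries, and male replicate 1 was next. The high-sulfur share was 65.1% (62.6 to 67.6) in female replicate 2 and 49.8% (47.9 to 51.7) in male replicate 1, and 33.7 to 43.7% elsewhere. The ultrahigh-sulfur share was 29.3% in female replicate 2, 27.0% in male replicate 1 and 16.5 to 23.3% elsewhere. The intervals cover counting error only. Because a share is taken within a library, library size and dilution by RNA of other tissues cancel from it. Whether the part of the paw taken changed the shares was not tested.

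**Figure D3:**
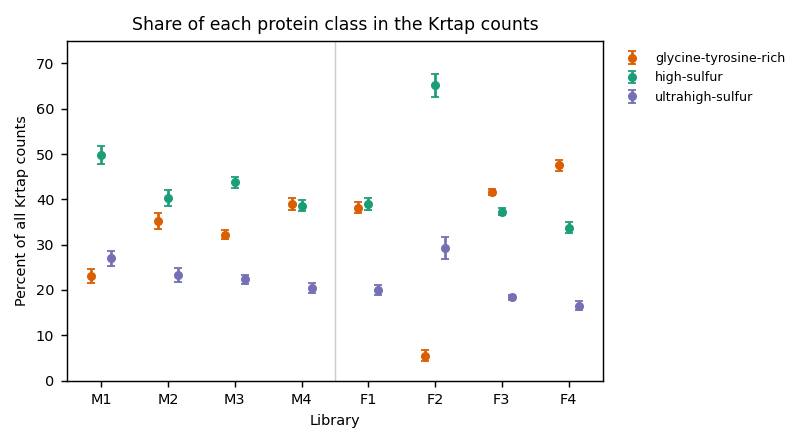
Percent of all Krtap counts held by each protein class in each library (M male, F female), with bars for the 95% exact binomial interval of counting error. Glycine-tyrosine-rich members hold 5.51% in F2 and 23.0 to 47.5% in the other 7 libraries.

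Most members that were nearly absent from female replicate 2 were neighbours. In gene order on chromosome 16, the stretch from Krtap14 to Krtap7-1 holds 15 members, of which 12 had a median of at least 20 counts in the other 7 libraries. It takes in the glycine-tyrosine-rich genes and also Krtap14 and Krtap15, numbered as high-sulfur, and Krtap16-10. In female replicate 2 these 12 stood at 0.0571 times the median of the other 7 or less, with a median ratio of 0.0146 (0.0201 with the 2 members at 0 set to 3 counts). Krtap14 and Krtap15 had 3 and 1 counts there, against 235 and 319 in female replicate 3. The 4 flanking members of the same cluster that met the count minimum, Krtap24-1, Krtap26-1, Krtap13-1 and Krtap11-1, stood at 0.381 to 0.477. Of the 22 members of chromosome 11, the 17 that met the count minimum stood at 0.0862 (Krtap1-5) to 0.969 (Krtap3-2), with a median of 0.312. Krtap16-1, placed on chromosome 11 by its symbol, was below the minimum and had the pattern of the stretch: 0, 4, 15 and 12 counts in male replicates 1 to 4 and 24, 0, 103 and 17 in female replicates 1 to 4. Like Krtap8-2, Krtap16-4 and Krtap16-9 it was at 0 in male replicate 1 and female replicate 2 alone, and its place in the authors' annotation is not known. The bounds of the stretch were chosen after the values were seen, so the ratios describe it without a test.

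Male replicate 1 repeated this picture at lower contrast. There the 12 stood at 0 to 0.473 times the median of the other 7, with a median of 0.180, and the 4 flanking members stood at 0.579 to 0.953. The 17 chromosome 11 members stood at 0.361 to 0.912, with a median of 0.637, so their range overlapped that of the 12. Krtap16-5 had 1 count in each of the 2 libraries, and Krtap16-10 had 4 and 0. Male replicate 2 was also low in Krtap transcript. Its median ratio was 0.507 in the stretch, 0.432 for the flanking members and 0.759 for the 17 chromosome 11 members. The stretch was thus not below its flanking members there, but was below the chromosome 11 members.

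**Figure D4:**
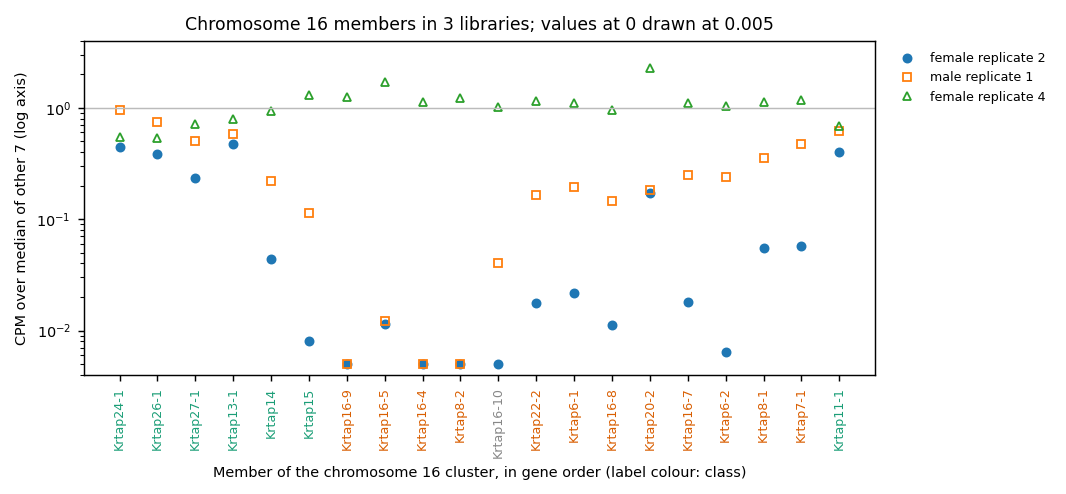
CPM in female replicate 2, male replicate 1 and female replicate 4 over the median of the other 7 libraries (log axis), for the 20 chromosome 16 members with counts, in gene order. Values of 0 are drawn at 0.005 and label colours give the class. From Krtap14 to Krtap7-1 the filled points of female replicate 2 drop below those of the genes on either side.

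The families Krtap5, Krtap10 and Krtap12 of chromosomes 7 and 10 followed the libraries in another way. In female replicate 4 the 4 of them with enough counts, Krtap5-5, Krtap10-4, Krtap10-10 and Krtap12-1, stood at 0.227 to 0.385 times the median of the other 7. These ratios rest on 15, 6, 28 and 21 counts there. The 33 members of chromosomes 11 and 16 stood at 0.472 to 1.69, with a median of 0.948. Their median was 1.115 for the 12 of the chromosome 16 stretch, 0.787 for the 17 of chromosome 11 and 0.611 for the 4 flanking members. Of all 25 members outside the stretch that met the count minimum, 21 were below 1. The 15 hair shaft keratins stood at 0.450 to 1.07, with a median of 0.717. The grouping was chosen with earlier results known, and no test was made of it. Krtap5-5 had 15 counts in female replicate 4, as in female replicate 2, and 127 in female replicate 3. Krtap10-10 stood at 2.59, 1.28, 5.07 and 3.09 CPM in male replicates 1 to 4 and at 3.95, 1.29, 6.80 and 1.08 CPM in female replicates 1 to 4, and Krtap12-1 ranged from 0.749 CPM in male replicate 2 to 5.74 CPM in female replicate 3. In male replicate 2 the 4 stood at 0.231 to 0.416 and the 33 at 0.330 to 1.05, so the ranges overlapped, and the 4 flanking chromosome 16 members stood at 0.415 to 0.487. Female replicate 4 was thus low in this group while its glycine-tyrosine-rich share was the highest of the 8.

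Krtap3-2 was the member least reduced in female replicate 2, at 0.969 times the median of the other 7. Krtap10-4, with 20 counts in female replicate 2, was close to it at 0.928. Krtap3-2 stood at 5.87, 7.38, 11.6 and 7.93 CPM in male replicates 1 to 4 and at 11.96, 10.4, 26.2 and 10.7 CPM in female replicates 1 to 4. Its 225 counts in female replicate 2 compare with 74 for Krtap3-1 and 54 for Krtap3-3. Krtap3-2 was below Krtap3-1 in every male replicate and in female replicate 3, with 212 against 348 counts in male replicate 3. Of its windows 28.9% also occurred in another gene, chiefly Krtap3-3, so part of its reads were not counted. The hair keratins Krt35 and Krt85 were not reduced in female replicate 2 either, and why was not tested. They stood at 1.30 and 1.44 times the median of the other 7 in female replicate 2, where the other 13 hair shaft keratins stood at 0.350 to 0.937. The inner root sheath genes, which encode the sheath that encloses the growing shaft, stood there at 0.597 to 1.68 times that median (8 genes with enough counts, median 0.954).

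Between the sexes no member passed the test. Of the 51 members 42 passed the filter on low counts, and edgeR's quasi-likelihood test called 0 of them at an adjusted p under 0.05, against 14 of all 14790 tested genes (0.0947%), of which 6 were higher in females (0.0406%) and 8 lower (0.0541%). DESeq2 and limma-voom also called 0 members, against 112 of 14781 genes with an adjusted p for DESeq2 (0.758%) and 16 of 14790 for limma-voom (0.108%). At an unadjusted p under 0.05 edgeR gave 1 of 42, Krtap3-2, where 6.53% of all tested genes lay. No member had every female library on one side of every male library, against 2.93% of tested genes with females higher and 1.81% with females lower. The 9 members left out by the filter were Krtap4-13, Krtap5-1, Krtap9-5, Krtap13, Krtap16-4, Krtap16-9, Krtap20-2, Krtap31-1 and Krtap31-2.

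The fitted differences had wide errors. Females averaged a summed level of 351 ± 307 CPM (SD, n = 4) and males 243 ± 124 CPM (SD, n = 4). Log2 fold changes, female over male, were above 0 for 37 of 42 members with a median of 0.48, where 52.7% of all tested genes lay above 0 with a median of 0.010. That direction rested on female replicate 3: without it 9 of 42 lay above 0, against 55.7% of all tested genes, and the median was -0.27. With limma-voom and all 8 libraries 19 of 42 lay above 0, against 50.1% of all tested genes, with a median of -0.046. For Krtap3-2 the difference was 0.86 on the log2 scale (SE 0.35), and edgeR gave an adjusted p of 0.749. The next by p were Krtap16-1 (2.02, SE 1.24), Krtap8-2 (1.79, SE 1.33), Krtap4-7 (0.61, SE 0.52) and Krtap1-5 (1.02, SE 0.91), with edgeR adjusted p of 0.877 to 0.981. The most abundant member, Krtap8-1, had 0.65 (SE 0.89) and Krtap11-1 had 0.18 (SE 0.62), both with an edgeR adjusted p of 0.999.

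**Figure D5:**
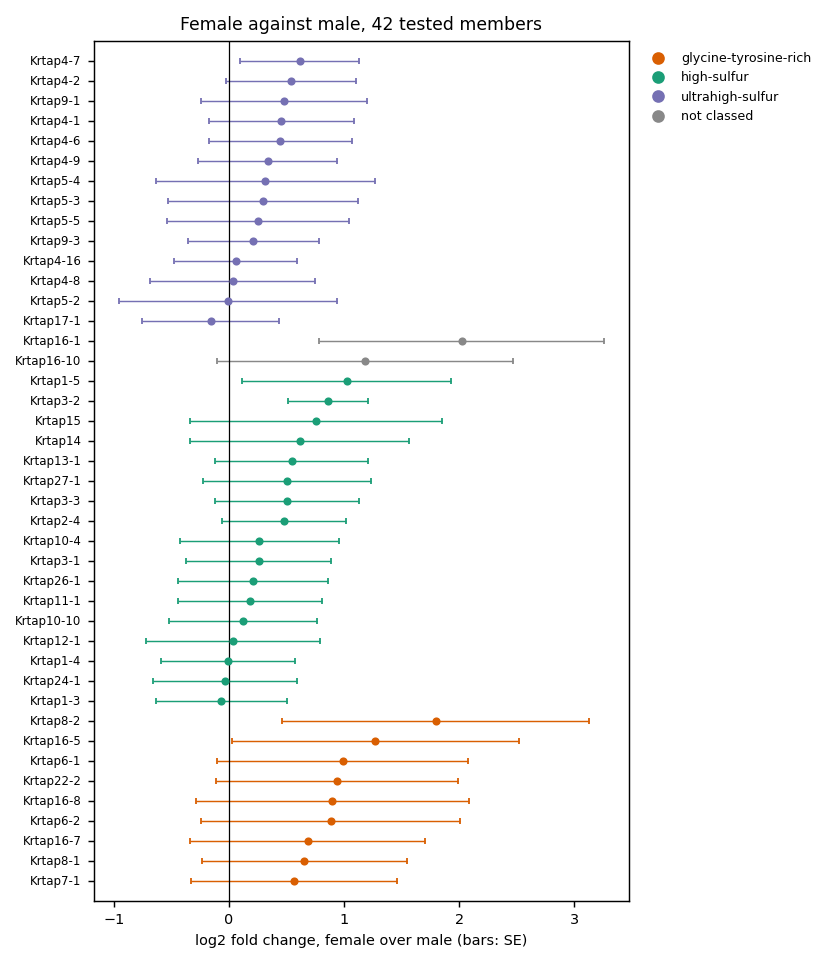
Log2 fold change, female over male, of the 42 tested members from edgeR's quasi-likelihood fit, with bars of 1 SE, grouped and coloured by protein class. Of the 42 points 37 lie above 0, the longest bars belong to Krtap8-2, Krtap16-10, Krtap16-5 and Krtap16-1, and no member passed the test.

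The partners of these proteins in the hair did not pass the test either. Of 15 hair shaft keratins, which form the filaments of the shaft, 13 lay above 0 (median log2 fold change 0.31) and edgeR called 0. Of 9 inner root sheath genes 9 lay above 0 (median 0.67), with 0 called. As with the members, female replicate 3 held the highest level of most of these genes. It did so for 14 of the 15 hair shaft keratins and 9 of the 9 inner root sheath genes. Of 5 other shaft genes 3 lay above 0, among them Padi3, a deiminase of hair proteins (0.49, SE 0.48), and Dsg4, a desmosomal cadherin of the shaft (0.53, SE 0.52), with 0 called. The other 2 lay below 0, the lower at -0.41, and the summed CPM of the 5 in females averaged 0.837 times that in males. The 14 tested follicle regulators had 9 above 0, 0 called and 3 at an unadjusted p under 0.05. Hoxc13, a homeobox factor known to regulate hair keratins and keratin-associated proteins, stood at 11.2, 7.06, 13.8 and 12.3 CPM in male replicates 1 to 4 and at 9.19, 13.3, 16.6 and 9.22 CPM in female replicates 1 to 4. Its 13.3 CPM in female replicate 2 lay within the range of the other 7 libraries. The regulators as a list stood in that library at a median of 1.19 times the median of the other 7 libraries (15 genes). Whether the levels of regulators bear on the Krtap levels was not tested.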

How the data were processed

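Each library had 1 deposited file of raw, unnormalized read counts, as whole numbers for each gene symbol. Per the labels' protocols the library kit was stranded and enriched poly(A) RNA. The submitters' processing notes name bcl2fastq, TopHat2, HTSeq and the build mm9. Their versions, the gene annotation used and how strand was treated in counting were not given in the sources used here, so a gene and an antisense partner may not be told apart. The counter's summary lines name no gene and were left out. Of uniquely placed reads 18.0 to 21.1% lay outside any gene, and lines for alignments that were not unique 45.2 to 48.7% of all lines.

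Libraries were scaled by TMM, genes were kept by filterByExpr (14790 of 22609), and female was compared with male by edgeR 4.0.16 (glmQLFit and glmQLFTest, robust) in R 4.3.3, with Benjamini-Hochberg adjustment over all tested genes. Each SE was computed as the absolute log2 fold change divided by the root of F. The fit was tested on simulated data. Libraries of 1 sex differed beyond sampling noise (chi-square per degree of freedom of at least 13.2). Alternatives were DESeq2 1.42.0, limma-voom (limma 3.58.1), other size factors, no filter, the replicate number as a block, a muscle covariate and libraries left out.

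The named members were the 15 of highest mean CPM, the highest of each family with a mean of at least 1 CPM, the 5 of smallest p, any called or not overlapping between the sexes, and any at 0 throughout. Genes of other lists were to be the 4 of highest mean CPM in their list. Other members named, such as Krtap1-3, Krtap4-2, Krtap4-16 and Krtap10-4, and the genes Krt85, Hoxc13, Dsg4, Actn3 and Pvalb, fall outside this rule, and their values were known when they were picked. The members, lists and tests were chosen with earlier results of these data known. Promoters and gene order are from RefSeq on GRCm38.p6 and transcripts from GENCODE M21, a later build than that of the counts.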

Additional observations from a re-analysis of the deposited data

Results flagged for a closer look

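Within each sex, 82 sets of 4 libraries were searched for a single library standing apart, and 2 were found, while about 1 in 20 would be found by chance. Krtap3-2 reached 4.72 as log2 CPM in female replicate 3, and the other females lay between 3.39 and 3.59. Its level there, 2.52 times the median of the other 7 libraries, was below the median ratio of 3.27 for the 37 well-counted members. The inner root sheath genes reached 10.24 as log2 of their summed CPM in female replicate 3, and the other females lay between 8.51 and 8.75.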

How the results depend on the processing

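No alternative called a member between the sexes. The number of all genes called, 14, was 7 with the replicate block, 112 with DESeq2 and 8 to 16 with 1 library left out (8 without male replicate 3 or 4). It was 9 without female replicate 3 and male replicate 2, and 7 without female replicate 2 and male replicate 1, a choice made after seeing the data. The median Krtap log2 fold change, 0.48, was 0.16 with the block, 0.019 with the muscle covariate, -0.046 with limma-voom, and -0.27 (without female replicate 3) to 0.82 with 1 library left out. It was -0.49 without female replicate 3 and male replicate 2. The summed ratio of females to males, 1.45, was 1.44 to 1.68 under other scalings and 0.852 to 1.86 with 1 library left out, the lowest again without female replicate 3, and 0.764 without female replicate 3 and male replicate 2. Single members changed sign too: without these 2 libraries Krtap4-7 had -0.19, Krtap1-5 -0.24, Krtap8-1 -0.17 and Krtap11-1 -0.71, Krtap8-1 had -0.068 with limma-voom, and Krtap11-1 -0.18 with the covariate. With 1 library left out they ranged from -0.085 to 0.89, -0.074 to 1.42, -0.012 to 1.05 and -0.45 to 0.70. The cause was not tested. Members detected in all 8 libraries numbered 40 at 1 count and 24 at 10 counts. The labels do not state that the replicate numbers pair the samples. Deviations of same-numbered libraries correlated at -0.31 to -0.09, and those of differently numbered libraries at -0.76 to 0.77. These correlations cannot exclude a pairing. Members under 20 counts per library carry ratios that depth leaves uncertain.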
